A study of Mus musculus with 8 samples.

Results

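The genes described here are 38 genes of the synaptic vesicle and its release machinery, out of 23393 named genes in the count files. They were chosen by gene symbol, from what their proteins do, with earlier results of these data known. All 38 passed the filter on low counts that left 17415 genes for testing. They fall into 9 roles, which are vesicle membrane and coat proteins, synaptotagmins, Rab3 proteins, the fusion machinery with Nsf, complexins, active zone scaffolds, Munc13 priming proteins, vesicular glutamate transporters and endocytosis. The data are RNA sequencing read counts from bulk lysate of prefrontal cortex of C57BL6/J mice aged 6 to 8 weeks, in 4 groups of 2 libraries. A group titled Adnp (shAdnp here) received adeno-associated virus of serotype 9 (AAV9) with a short hairpin RNA and was set against its own controls, which received AAV9 with GFP (Adnp-set GFP). A group titled Pogz (shPogz) received hairpin AAV9 and was set against a separate pair of GFP controls (Pogz-set GFP). Every animal had therefore received AAV9, and the treatment label of both hairpin groups names a hairpin against ASH1L, while the titles, which were followed here, name Adnp and Pogz. The sources used here do not give the promoter that drove the hairpin, the share of cells that carried virus or whether animals were pooled. The labels call the libraries biological duplicates, and the design text counts 3 knockdown and 2 control mice. The library called shPogz replicate 2 here, after its title, has a column name that ends in 3, so its number may not be a replicate number shared with the other groups.

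At a chemical synapse, transmitter is loaded into vesicles that are docked and primed at the active zone and fuse when calcium enters the terminal. SNARE proteins on the vesicle and the plasma membrane drive fusion, synaptotagmins sense calcium, complexins hold the assembled SNARE complex ready, and RIM and Munc13 proteins prime vesicles. In cerebral cortex most of these vesicles carry glutamate, loaded by the transporter that Slc17a7 encodes, and inhibitory neurons use much of the same machinery.

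Total counts were 63024070 and 55641435 in shAdnp, 62999525 and 65104567 in Adnp-set GFP, 41560029 and 35164558 in shPogz, and 27501722 and 69002749 in Pogz-set GFP, replicates 1 and 2 in that order here and throughout. Values are counts per 1e6 (CPM) on TMM-scaled library sizes, and differences are log2 fold changes of hairpin over GFP with the standard error (SE) of the model. Adnp stood at 87.2 and 118 CPM in shAdnp, against 137 and 111 CPM in Adnp-set GFP. Pogz stood at 49.0 and 37.3 CPM in shPogz, against 54.4 and 53.1 CPM in Pogz-set GFP. Ash1l, which the treatment labels name, stood at 292 and 330 CPM in shAdnp, against 364 and 301 CPM in Adnp-set GFP. In shPogz Ash1l had 299 and 273 CPM, against 243 and 288 CPM in Pogz-set GFP. The Pogz groups did not overlap, the Adnp and Ash1l groups did, and none of these genes passed the adjusted test. A pair of libraries stood apart. In shAdnp replicate 1 the ribosomal RNA precursor Rn45s took 7.62% of counts, against 0.134% to 0.74% in the others, and shPogz replicate 2 had the highest summed level of striatal, oligodendrocyte and microglia markers of the 8.

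No release gene passed the adjusted test in either knockdown, while most of them stood slightly below their GFP controls in both. In shAdnp 31 of the 38 genes had a log2 fold change below 0, against 52.3% of all tested genes, and their median was -0.13, against -0.01 over all tested genes. In shPogz 34 of 38 were below 0, against 53.6% of all tested genes, with a median of -0.19, against -0.02 over all tested genes. The single fold changes ran from -0.40 (Unc13c) to 0.43 (Rims3) in shAdnp. By edgeR's quasi-likelihood test with Benjamini-Hochberg adjustment over all tested genes, 0 of 38 passed in shAdnp, where 0% of all tested genes did, and the smallest adjusted p of a member was 0.402. In shPogz 0 of 38 passed, again with 0% of all tested genes, and the smallest adjusted p was 0.667. At an unadjusted p under 0.05 there were 2 lower members in shAdnp (Syt4 and Unc13c; 1.69% of all tested genes) and 1 higher (Rims3; 6.67%). At the same unadjusted threshold shPogz had 2 lower members (Rab3c and Erc1; 2.65%) and 0 higher (4.05%). DESeq2 called 0 of 38 in shAdnp, where it called 2.41% of all tested genes, and 0 of 38 in shPogz, where it called 0.574%, and limma-voom called 0 of 38 in both.

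Groups that do not overlap were counted next, that is, genes whose 2 hairpin libraries both lay below, or both above, the 2 GFP libraries of their set. In shAdnp 19 members lay below their controls without overlap, against 21% of all tested genes, and 1 lay above (Rims3), against 20.4%. In shPogz 12 members lay below, against 21.3% of all tested genes, and 0 above, against 19%. In shAdnp the 19 were 4 of 7 vesicle proteins, 4 of 6 synaptotagmins, 2 of 3 Rab3 genes, 2 of 5 fusion genes, 0 of 3 complexins, 3 of 7 active zone genes, 1 of 3 Munc13 genes, 2 of 2 glutamate transporters and 1 of 2 endocytosis genes. In shPogz the 12 were 4 of 7 active zone genes, 2 of 5 fusion genes, 2 of 3 Munc13 genes, 1 of 7 vesicle proteins, 0 of 6 synaptotagmins, 1 of 3 Rab3 genes, 1 of 3 complexins, 0 of 2 glutamate transporters and 1 of 2 endocytosis genes. The genes below their controls in both sets were Sv2a, Rab3c, Nsf, Rims2 and Erc1, that is 5 members or 13.2%, against 5.31% of all tested genes. Another 11 members overlapped their controls in both sets.

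**Figure D1:**
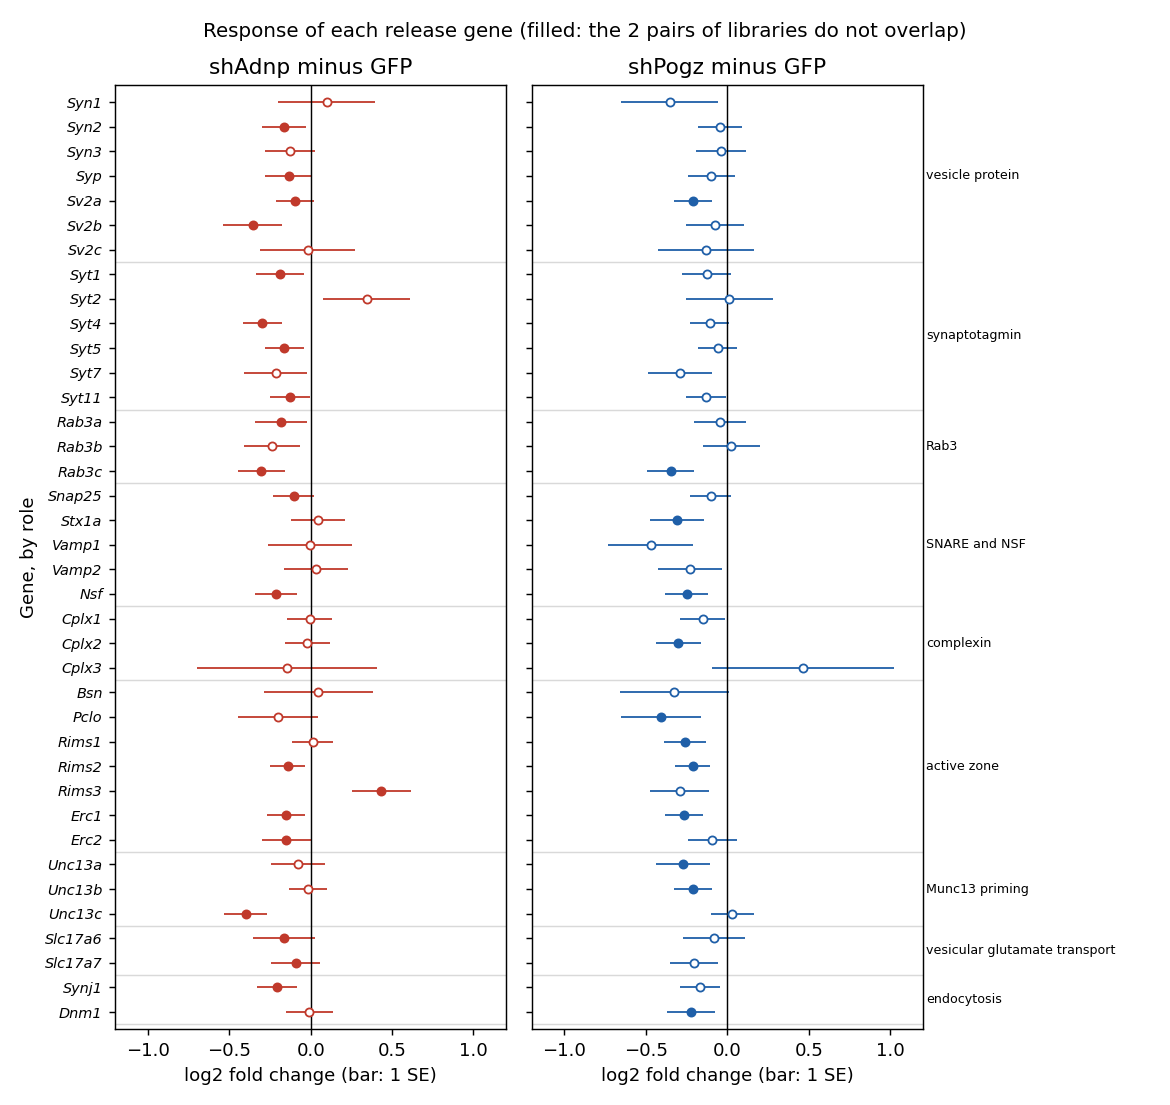
Log2 fold change of each of the 38 release genes (vertical axis, by role), with 1 SE as the bar, for shAdnp over its GFP controls and for shPogz over its own GFP controls. Filled points mark genes whose 2 pairs of libraries do not overlap, 20 genes in shAdnp and 12 in shPogz, and most points lie left of 0 in both.

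The tissue was a mixture, and in bulk samples fewer cells of a type and less RNA per cell cannot be told apart. Most pan-neuronal markers outside the release genes also stood below their controls, and 0 of 115 markers of any cell type passed the edgeR adjusted test in either knockdown. At an unadjusted p under 0.05 by edgeR there were 3 lower markers in shAdnp (1.69% of all tested genes) and 29 higher (6.67%). In shPogz there were 7 lower (2.65%) and 6 higher (4.05%). DESeq2 called 21 in shAdnp (2.41% of all tested genes), 12 of them microglia markers, and 0 in shPogz (0.574%). By limma-voom 0 were called in both. In shAdnp 13 of 16 pan-neuronal markers were below 0, Map2 and Tubb3 among them and Rbfox3 not (0.17), at a median of -0.14, and their summed level was 5790 to 6237 CPM, against 6617 to 6798 CPM in Adnp-set GFP. In shPogz 16 of 16 were below 0 with a median of -0.19, and their sum was 4813 to 5775 CPM, against 5980 to 6002 CPM in Pogz-set GFP. Markers of excitatory neurons were more mixed, with 7 of 12 below 0 in shAdnp (median -0.06; sum 2417 to 3378 CPM, against 2723 to 3107 CPM in Adnp-set GFP) and 11 of 12 in shPogz (median -0.28; sum 1807 to 2673 CPM, against 2504 to 2876 CPM in Pogz-set GFP). Inhibitory neuron markers were below 0 for 9 of 12 in shAdnp (median -0.06) and 10 of 12 in shPogz (median -0.17). Most microglia markers stood above their controls. In shAdnp 15 of 15 were above 0 with a median of 1.37, and they summed to 1728 to 2713 CPM, against 665 to 991 CPM in Adnp-set GFP. In shPogz 14 of 15 were above 0 with a median of 0.77 and a sum of 1621 to 2821 CPM, against 1307 to 1428 CPM in Pogz-set GFP. Meningeal fibroblast markers were above 0 for 10 of 10 in shAdnp at a median of 0.97 and a sum of 277 to 284 CPM, against 137 to 148 CPM in Adnp-set GFP. There 10 of 10 lay above without overlap, against 20.4% of all tested genes. In shPogz 7 of 10 were above 0 at a median of 0.36. Without overlap 1 lay above (19% of all tested genes) and 3 below (21.3%). Striatal markers were above 0 for 11 of 11 in shPogz at a median of 0.60, with a sum of 376 to 496 CPM, against 339 to 344 CPM in Pogz-set GFP. In shAdnp 6 of 11 striatal markers were below 0 (median -0.11). Astrocyte markers were below 0 for 3 of 12 in shAdnp (median 0.06) and 11 of 12 in shPogz (median -0.15). Oligodendrocyte markers were below 0 for 7 of 10 in shAdnp (median -0.07) and above 0 for 10 of 10 in shPogz (median 0.45). None of the neuronal or microglia markers was at 0 in any library. When libraries were scaled to the summed counts of the pan-neuronal markers instead of TMM, the median of the release genes was 0.03 in shAdnp and -0.0089 in shPogz. That scaling moved the median of all tested genes to 0.15 in shAdnp and 0.17 in shPogz. It moves every gene of a library alike, so it could not test whether the release genes stood apart from all tested genes. Under it 3 members lay below their controls without overlap in shAdnp, against 4.94% of all tested genes, and 6 above, against 42.3%. In shPogz 6 lay below, against 6.63% of all tested genes, and 6 above, against 36%. The part of cell makeup in single genes was not tested.

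**Figure D2:**
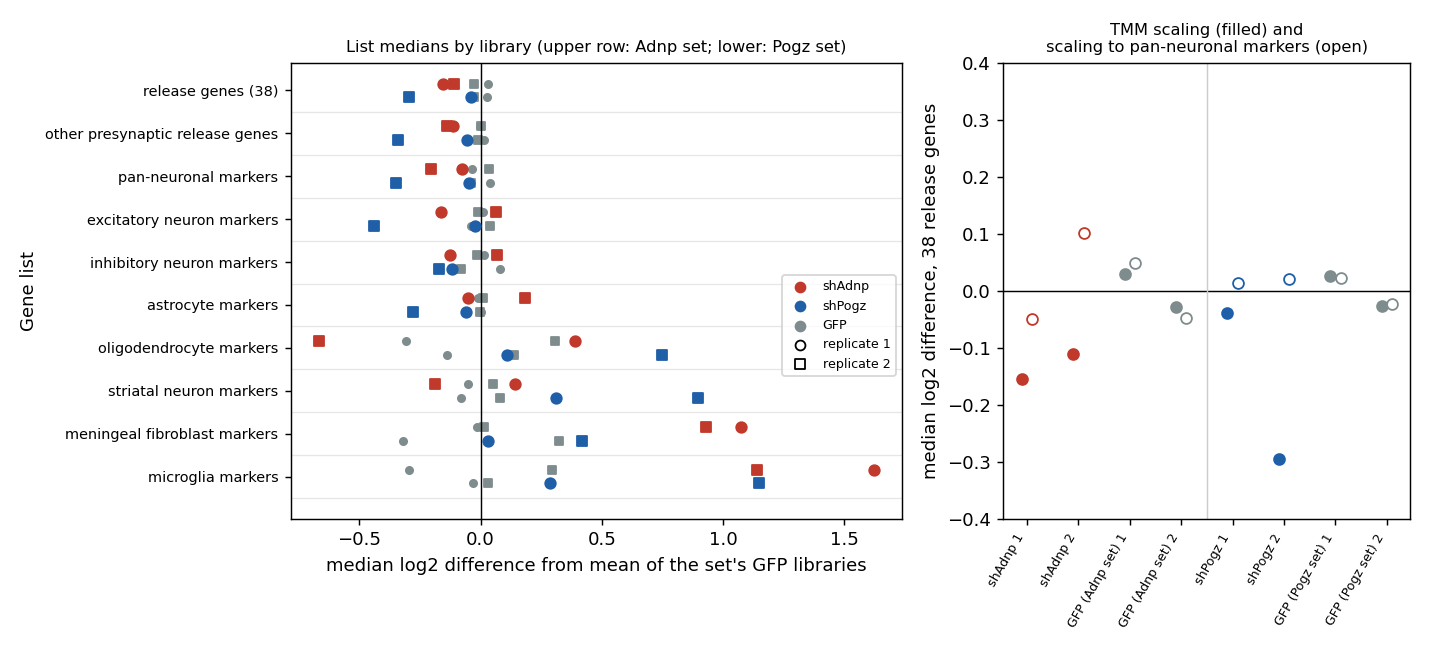
Left, the median log2 difference of each gene list from the mean of its set's GFP libraries, 1 point per library with the Adnp set in the upper row of each list and the Pogz set in the lower. Right, the median of the 38 release genes by library under TMM (filled) and scaled to pan-neuronal markers (open), where shPogz replicate 2 sits at -0.30 and 0.02.

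The lower level in shPogz came mostly from 1 of its 2 libraries. The median log2 difference of the release genes from the mean of the set's GFP libraries was -0.15 and -0.11 in the 2 shAdnp libraries, and -0.04 and -0.30 in the 2 shPogz libraries. In shPogz replicate 2, 26 of 38 members had their lowest level of all 8 libraries (68.4%), against 25.5% of all tested genes. There 30 members lay below both GFP libraries of the set, against 41.3% of all tested genes, while in shPogz replicate 1 14 members did, against 31.4%. In shAdnp the counts were 29 in replicate 1 (39.8% of all tested genes) and 21 in replicate 2 (38%). Within shPogz 32 of 38 members were lower in replicate 2 than in replicate 1. Without shPogz replicate 2 the median in shPogz was -0.044 and 26 of 38 members were below 0, against 52.9% of all genes tested then. In shAdnp 22 of 38 members were below 0 without shAdnp replicate 1 (47.7% of all genes tested then) and 23 without Adnp-set GFP replicate 1 (48.6%). In shPogz replicate 2 the median difference was 0.90 for 11 striatal markers, 0.75 for 10 oligodendrocyte markers and -0.44 for 12 excitatory neuron markers, and their part in the result was not tested.

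Levels of different genes were compared only per length, as CPM per kilobase of exon over the 4 GFP libraries. Snap25, which encodes the plasma membrane SNARE that supplies helices to the fusion complex, led with 1403 ± 183 CPM per kilobase (SD, n = 4 libraries here and in the rest of the order), and its range of 1211 to 1563 lay above that of every other member. Syt1, the fast calcium sensor of forebrain synapses, followed at 444 ± 60, and Syp, the vesicle membrane protein synaptophysin, at 434 ± 54.9. Their ranges overlapped, so their order was not settled. Slc17a7 stood at 362 ± 39.6 and Nsf at 289 ± 15.6 CPM per kilobase, and Nsf overlapped the next gene, Rab3a, at 236 ± 40.4. The low end held genes that are known for other brain regions or small cell groups. Slc17a6, the vesicular glutamate transporter of subcortical neurons, had 4.46 ± 0.82 CPM per kilobase, Cplx3 4.39 ± 1.46, Syt2 2.43 ± 0.44 and Sv2c 1.68 ± 0.40, and Slc17a6 overlapped Cplx3 as Syt2 overlapped Sv2c. Between them lay a run in which most neighbours overlapped, among them the scaffolds Bsn at 39.9 ± 9.09 and Pclo at 28.9 ± 5.22 CPM per kilobase.

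**Figure D3:**
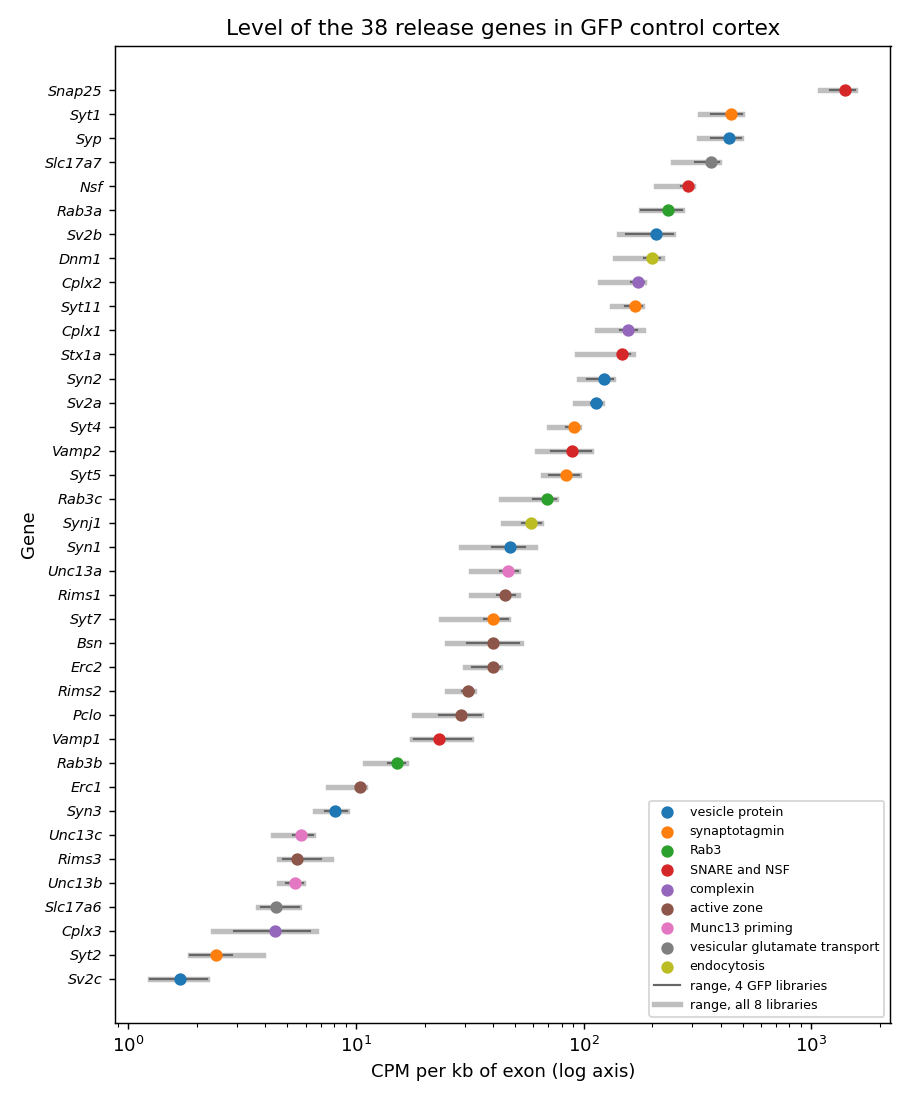
Level of the 38 release genes as CPM per kilobase of exon (log axis), ordered from high to low by the mean of the 4 GFP libraries. Points are these means, and thin lines are the range of the 4 GFP libraries. Thick grey lines are the range of all 8 libraries, hairpin libraries included. Snap25 at a mean of 1403 stands clear of the other genes and Sv2c at 1.68 is last.

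Paralogs of 1 role differed widely in level, and their ratio per length varied between libraries. Slc17a7 over Slc17a6 was 98.0 and 97.9 in shAdnp, against 98.4 and 88.5 in Adnp-set GFP. The same ratio was 83.1 and 50.3 in shPogz, against 54.7 and 93.3 in Pogz-set GFP. Low values thus occurred in 1 shPogz library and 1 GFP library, and the groups overlapped. Syt1 over Syt2 was 177 and 109 in shAdnp, against 183 and 211 in Adnp-set GFP. Syt1 over Syt2 was 187 and 127 in shPogz, against 128 and 233 in Pogz-set GFP. Vamp2 over Vamp1, the 2 synaptobrevin genes of the vesicle, stayed between 2.99 and 4.88 in all 8 libraries.

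Among the vesicle proteins, the synapsins (Syn1, Syn2, Syn3) tether vesicles in clusters, and the SV2 proteins are transporter-like glycoproteins of the vesicle membrane. Sv2b, a form common in forebrain, had 1196 and 1027 CPM in shAdnp, against 1390 and 1456 CPM in Adnp-set GFP. The groups did not overlap, and the log2 fold change was -0.36 (SE 0.18; adjusted p 0.661 by edgeR). The shPogz libraries had 1148 and 844 CPM of Sv2b, against 911 and 1186 CPM in Pogz-set GFP, with overlap and a log2 fold change of -0.07 (SE 0.18). Sv2a, the binding site of the antiepileptic drug levetiracetam, had 462 and 451 CPM in shAdnp, against 483 and 494 CPM in Adnp-set GFP. Its values in the Pogz set were 460 and 396 CPM in shPogz, against 522 and 468 CPM in Pogz-set GFP. Sv2a was lower without overlap in both sets, by small steps of -0.10 (SE 0.12) and -0.21 (SE 0.12) on the log2 scale. The other 5 vesicle proteins ran from -0.16 (Syn2) to 0.10 (Syn1) in shAdnp and from -0.35 (Syn1) to -0.04 (Syn3) in shPogz.

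Of the synaptotagmins, Syt4 belongs to a form whose first calcium-binding domain has lost key residues, and it is found on vesicles that carry peptides and growth factors. Syt4 had 311 and 274 CPM in shAdnp, against 354 and 364 CPM in Adnp-set GFP, which did not overlap. The difference was -0.30 (SE 0.12) on the log2 scale, at an unadjusted p of 0.0357 and an edgeR adjusted p of 0.54. For shPogz the levels of Syt4 were 346 and 302 CPM, against 371 and 327 CPM in Pogz-set GFP, and the groups overlapped. Syt7, a high-affinity calcium sensor of slow release and facilitation, had 246 and 292 CPM in shAdnp, against 334 and 291 CPM in Adnp-set GFP. Syt7 had 265 and 171 CPM in shPogz, against 262 and 271 CPM in Pogz-set GFP, so that only replicate 2 lay below its controls. The log2 fold changes of Syt7 were -0.22 (SE 0.19) in shAdnp and -0.29 (SE 0.19) in shPogz. Syt2, the fast sensor of brainstem synapses and of some cortical inhibitory neurons, was among the most variable members with a coefficient of variation of 23.8% over the 8 libraries. Syt2 stood at 17.5 and 28.4 CPM in shAdnp, against 19.7 and 16.5 CPM in Adnp-set GFP, and at 15.7 and 18.5 CPM in shPogz, against 20.5 and 13.5 CPM in Pogz-set GFP. It overlapped in both sets, and shAdnp replicate 2 was the highest library. Syt1, Syt5 and Syt11 each lay below their controls without overlap in shAdnp, by -0.19, -0.16 and -0.13 on the log2 scale, and overlapped in shPogz.

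Rab3 proteins are small GTPases of the vesicle surface that bind RIM proteins at the active zone, and Rab3c had the smallest p of all members when both hairpins were averaged. Rab3c lies at chr13:110054187-110280996 (GRCm38.p6). It had 524 and 538 CPM in shAdnp, against 676 and 634 CPM in Adnp-set GFP. Levels of Rab3c were 514 and 387 CPM in shPogz, against 612 and 535 CPM in Pogz-set GFP. Both hairpin groups lay wholly below their own controls, and the lowest of the 8 values was that of shPogz replicate 2. The log2 fold change was -0.30 (SE 0.15; adjusted p 0.637 by edgeR) in shAdnp and -0.35 (SE 0.15; adjusted p 0.667 by edgeR) in shPogz. Averaged over both sets with a term for set, Rab3c stood at -0.33 (SE 0.10) with an unadjusted p of 0.00642 and an edgeR adjusted p of 0.224. DESeq2 gave -0.31 with an adjusted p of 0.0454 for that average. Without shPogz replicate 1 edgeR gave -0.40 with an adjusted p of 0.0405, and without shPogz replicate 2 it gave -0.25 with an adjusted p of 0.501. Scaled to pan-neuronal markers the average was -0.16, with an edgeR adjusted p of 0.283. Rab3a overlapped in shPogz and lay below its controls in shAdnp at -0.18 (SE 0.16), and Rab3b overlapped in both sets.

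Sequences were looked at for 3 genes picked by their small unadjusted p, none of which passed the edgeR adjusted test. Rab3c was picked for the average of both hairpins, and Rims3 and Unc13c for the difference between the hairpins. Of the 38 members 31 matched a promoter window in RefSeq (GRCm38.p6), with 40 windows in all, each from 250 bases before to 50 after a start, against 15724 windows of tested genes. The 250 bases before 1 start of each gene are given from 5′ to 3′ on the gene's strand, with each GC box, GGGCGG or its complement CCGCCC, in capitals. For Unc13c this is an internal start, since the annotated gene begins at chr9:74008155 on the minus strand. The Rab3c stretch also lies inside its annotated gene, which begins at chr13:110280996.
Rab3c, chr13:110280207-110280456, minus strand: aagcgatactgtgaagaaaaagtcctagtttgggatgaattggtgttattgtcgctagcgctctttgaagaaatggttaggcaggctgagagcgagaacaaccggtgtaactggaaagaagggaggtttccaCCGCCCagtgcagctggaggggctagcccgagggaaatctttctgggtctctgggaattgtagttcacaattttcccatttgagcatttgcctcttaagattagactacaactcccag
Rims3, chr4:120854549-120854798, plus strand: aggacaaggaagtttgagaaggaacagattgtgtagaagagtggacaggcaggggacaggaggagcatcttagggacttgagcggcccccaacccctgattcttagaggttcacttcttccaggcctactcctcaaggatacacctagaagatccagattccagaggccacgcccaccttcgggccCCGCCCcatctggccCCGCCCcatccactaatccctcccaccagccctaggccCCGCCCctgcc
Unc13c, chr9:73969038-73969287, minus strand: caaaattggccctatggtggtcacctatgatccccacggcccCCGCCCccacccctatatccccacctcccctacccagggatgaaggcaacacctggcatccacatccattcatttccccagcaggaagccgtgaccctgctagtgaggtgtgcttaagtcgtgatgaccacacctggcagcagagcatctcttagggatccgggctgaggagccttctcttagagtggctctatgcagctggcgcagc
Rims3 carries 3 GC boxes in this stretch, and Rab3c and Unc13c carry 1 each. Over the whole windows, on both strands, the GC box occurred in 67.5% of the members' windows, against 56.8% of all windows, and the CCAAT box (CCAAT) in 10 of 40, against 37.1%. The TATA box (TATAAA) was in 7.5%, against 8.2%, and the E-box CACGTG in 4 of 40 windows, against 9.1% of all. The cyclic AMP response element TGACGTCA was in 2.5%, against 2.7%, and its first part TGACG, which every full element contains, in 10 of 40 windows, against 27.8%. The 2 parts of the site of the neuronal gene repressor REST were searched apart, TTCAGCACC in 5.0% (2 windows, of Syn1 and Unc13a), against 0.4%, and GGACAGC in 2.5%, against 7.8%. Median GC content was 62.2%, against 59.7% over all windows. These matches describe the letters alone. The members were long genes, with a median span of 66685 bases, against 21977 bases over the 16147 tested genes found in the annotation.

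Of the fusion genes, Nsf, the ATPase that takes spent SNARE complexes apart, showed the same order of groups as Rab3c. Nsf had 959 and 994 CPM in shAdnp, against 1116 and 1143 CPM in Adnp-set GFP. The shPogz libraries had 971 and 789 CPM of Nsf, against 1087 and 1007 CPM in Pogz-set GFP. Neither set overlapped, with log2 fold changes of -0.21 (SE 0.13; adjusted p 0.736 by edgeR) in shAdnp and -0.25 (SE 0.13; adjusted p 0.667 by edgeR) in shPogz. Vamp1, the synaptobrevin of brainstem, spinal cord and some cortical inhibitory neurons, was variable at a coefficient of variation of 22.9%. It had 76.4 and 99.5 CPM in shAdnp, against 93.0 and 83.4 CPM in Adnp-set GFP, and 72.0 and 75.4 CPM in shPogz, against 131 and 73.3 CPM in Pogz-set GFP. The value of 131 CPM in Pogz-set GFP replicate 1 stood apart, and without it the log2 fold change in shPogz was 0.03, against -0.47 (SE 0.26) with it. Snap25 lay below its controls without overlap in shAdnp at -0.10 (SE 0.13), and Stx1a, the plasma membrane syntaxin, did so in shPogz at -0.31 (SE 0.16).

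Of the complexins, Cplx2, the main form of cortical excitatory neurons with Cplx1 the other common form, had 863 and 883 CPM in shAdnp, against 909 and 861 CPM in Adnp-set GFP. Cplx2 had 761 and 584 CPM in shPogz, against 859 and 796 CPM in Pogz-set GFP, without overlap and with a log2 fold change of -0.30 (SE 0.14; adjusted p 0.667 by edgeR). Cplx3, known from retinal ribbon synapses and from the deepest cortical layer, was the most variable member with a coefficient of variation of 34.1%. Cplx3 had 19.6 and 6.95 CPM in shAdnp, against 10.9 and 18.5 CPM in Adnp-set GFP, and 13.8 and 17.4 CPM in shPogz, against 8.56 and 13.9 CPM in Pogz-set GFP. The highest and the lowest of its 8 values were both in shAdnp, and its groups overlapped in both sets.

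The active zone holds the giant scaffolds Bsn and Pclo, the RIM proteins and the ELKS proteins Erc1 and Erc2. Bsn had 514 and 844 CPM in shAdnp, against 829 and 487 CPM in Adnp-set GFP, so that both groups spanned the same range. Bsn had 577 and 401 CPM in shPogz, against 650 and 577 CPM in Pogz-set GFP, and its coefficient of variation over the 8 libraries was 25.9%. The log2 ratio of replicate 2 over replicate 1 for Bsn was 0.71 in shAdnp and -0.77 in Adnp-set GFP. Erc1 had 93.8 and 94.2 CPM in shAdnp, against 108 and 101 CPM in Adnp-set GFP. Levels of Erc1 were 91.5 and 74.1 CPM in shPogz, against 101 and 97.7 CPM in Pogz-set GFP. It was lower without overlap in both sets, at -0.15 (SE 0.12) in shAdnp and -0.27 (SE 0.12; unadjusted p 0.0483, adjusted p 0.667 by edgeR) in shPogz. Rims2, which with Rims1 encodes the long RIM forms that bind Rab3 and Munc13, was also lower without overlap in both sets, at -0.14 (SE 0.11) in shAdnp and -0.21 (SE 0.11) in shPogz.

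Rims3 was the only member above its controls without overlap in shAdnp, under TMM scaling. It encodes a short RIM form that lacks the Rab3 and Munc13 binding regions, and lies at chr4:120854779-120896580 (GRCm38.p6). Rims3 had 41.3 and 52.3 CPM in shAdnp, against 34.5 and 34.8 CPM in Adnp-set GFP, a log2 fold change of 0.43 (SE 0.18; unadjusted p 0.0398, adjusted p 0.556 by edgeR). In the Pogz set Rims3 had 31.0 and 33.8 CPM in shPogz, against 47.3 and 32.3 CPM in Pogz-set GFP, with overlap and a log2 fold change of -0.29 (SE 0.18). That negative value rested on Pogz-set GFP replicate 1, without which it was 0.02.

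Munc13 proteins open syntaxin so that SNARE complexes can form. Unc13c, best known from cerebellum, lies at chr9:73479422-74008155 (GRCm38.p6) and had 37.8 and 44.9 CPM in shAdnp, against 57.1 and 51.9 CPM in Adnp-set GFP. Its log2 fold change was -0.40 (SE 0.13), with an unadjusted p of 0.0132 and an edgeR adjusted p of 0.402, the smallest of the members in shAdnp. In the Pogz set Unc13c had 52.5 and 43.1 CPM in shPogz, against 46.3 and 47.4 CPM in Pogz-set GFP, with overlap and a log2 fold change of 0.03 (SE 0.13). Unc13b had 80.5 and 96.9 CPM in shAdnp, against 92.7 and 86.7 CPM in Adnp-set GFP, and overlapped. Unc13b had 88.9 and 81.9 CPM in shPogz, against 103 and 95.1 CPM in Pogz-set GFP, without overlap, at -0.21 (SE 0.12). Unc13a, the main form of cortical synapses, likewise overlapped in shAdnp at -0.08 (SE 0.17) and lay below its controls in shPogz at -0.27 (SE 0.17).

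**Figure D4:**
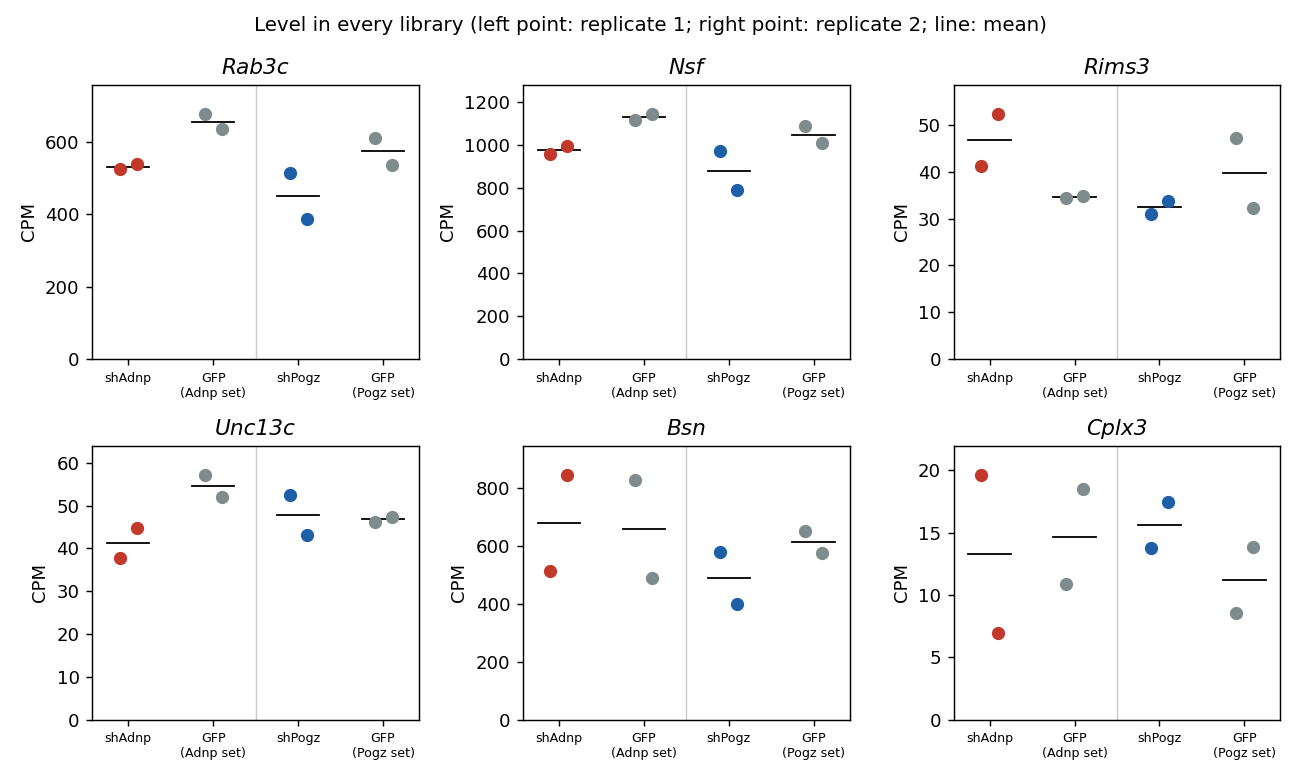
CPM of 6 release genes in every library, with shAdnp left of its GFP controls and shPogz left of its own, the left point of each pair being replicate 1 and the line the mean. Rab3c and Nsf lie below their controls in both sets, Rims3 lies above and Unc13c below in shAdnp, and Bsn and Cplx3 are spread widely within groups.

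Both vesicular glutamate transporters lay below their controls in shAdnp without overlap, by little. Slc17a7 had 1108 and 1087 CPM in shAdnp, against 1173 and 1168 CPM in Adnp-set GFP, a log2 fold change of -0.09 (SE 0.15). In the Pogz set Slc17a7 had 980 and 741 CPM in shPogz, against 921 and 1063 CPM in Pogz-set GFP, and overlapped. Slc17a6 had 15.6 and 15.4 CPM in shAdnp, against 16.5 and 18.3 CPM in Adnp-set GFP, and 16.3 and 20.4 CPM in shPogz, against 23.3 and 15.8 CPM in Pogz-set GFP. Of the endocytosis genes, Synj1, the lipid phosphatase that lets the clathrin coat come off, had 382 and 397 CPM in shAdnp, against 471 and 427 CPM in Adnp-set GFP, without overlap at -0.20 (SE 0.12). Synj1 had 391 and 321 CPM in shPogz, against 389 and 411 CPM in Pogz-set GFP, with overlap at -0.17 (SE 0.12). Dnm1, the neuronal dynamin that cuts vesicles off the membrane, had 962 and 1068 CPM in shAdnp, against 1043 and 998 CPM in Adnp-set GFP, which overlapped. In the Pogz set Dnm1 had 891 and 667 CPM in shPogz, against 893 and 924 CPM in Pogz-set GFP, and the small gap between 891 and 893 CPM kept the groups apart.

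The difference between the hairpins was tested as the shPogz response minus the shAdnp response. The median over the 38 genes was -0.07, and 23 members were below 0, against 53.1% of all tested genes. By edgeR 0 of 38 passed the adjusted test, as 0% of all tested genes did, and DESeq2 (0.0115% of all tested genes) and limma-voom also called 0 of 38. At an unadjusted p under 0.05 there was 1 lower member, Rims3 (2.41% of all tested genes), and 1 higher, Unc13c (1.1%). For Rims3 the difference was -0.73 (SE 0.26; unadjusted p 0.0196, adjusted p 0.978 by edgeR), and it was -0.40 without Pogz-set GFP replicate 1. For Unc13c the difference was 0.43 (SE 0.19; unadjusted p 0.0451, adjusted p 0.978 by edgeR), and it ran from 0.31 to 0.58 when single libraries were left out. Without shPogz replicate 2 the median difference over the members was 0.05, and 16 of 38 members were below 0, against 52.3% of all genes tested then.

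Averaged over both hairpins with a term for set, 35 of 38 release genes were below 0, against 55.3% of all tested genes, with a median of -0.13. Without shPogz replicate 2 the median was -0.076, with 32 of 38 below 0, against 54.6% of all genes tested then. At an unadjusted p under 0.05 there were 6 lower members, Rab3c, Nsf, Erc1, Rims2, Syt4 and Synj1 (3.62% of all tested genes), and 0 higher (8.84%). By edgeR 0 of 38 passed the adjusted test, where 0% of all tested genes did. DESeq2 called 1, Rab3c, where it called 4.08% of all tested genes, and limma-voom called 0. The average for Nsf was -0.23 (SE 0.08; adjusted p 0.306 by edgeR), for Rims2 -0.18 (SE 0.07; adjusted p 0.35 by edgeR) and for Syt4 -0.20 (SE 0.08; adjusted p 0.368 by edgeR). Scaled to pan-neuronal markers, 12 of 38 members were below 0 in this average, against 16.4% of all tested genes.

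The 2 pairs of controls, neither of which carried a hairpin, were also set against each other. They are the same libraries that the knockdown comparisons use as controls. Set as Pogz-set GFP over Adnp-set GFP, the median of the release genes was -0.16, against 0.01 over all tested genes, and 31 of 38 were below 0, against 48.2%. By edgeR 0 of 38 passed the adjusted test, where 0.00574% of all tested genes did, and DESeq2 (0.419%) and limma-voom (0.00574%) called 0 of 38. At an unadjusted p under 0.05, 3 members were lower, Sv2b, Syt5 and Snap25 (2.7% of all tested genes). Snap25 had 2866 and 2705 CPM in Pogz-set GFP, against 3477 and 3491 CPM in Adnp-set GFP, a log2 fold change of -0.32 (SE 0.13; adjusted p 0.672 by edgeR). Syt5 had 123 and 137 CPM in Pogz-set GFP, against 160 and 167 CPM in Adnp-set GFP, at -0.33 (SE 0.12; adjusted p 0.672 by edgeR). Without Adnp-set GFP replicate 1 the median between the control pairs was -0.098, with 24 of 38 below 0, against 46.3% of all genes tested then. In the same contrast 14 of 16 pan-neuronal markers were below 0 at a median of -0.15, and 15 of 15 microglia markers were above 0 at a median of 0.74. Their part in the result was not tested.

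Other genes of the release pathway, were taken from a list of 58, of which 57 were tested. In shAdnp 44 of 57 were below 0, against 52.3% of all tested genes, with a median of -0.13. There 26 lay below their controls without overlap, against 21% of all tested genes, and 3 above, against 20.4%. In shPogz 49 of 57 were below 0, against 53.6%, with a median of -0.20. There 26 lay below without overlap, against 21.3% of all tested genes, and 5 above, against 19%. Of these genes 0 passed the edgeR adjusted test in either knockdown. At an unadjusted p under 0.05 shAdnp had 1 lower (1.69% of all tested genes) and 2 higher (6.67%). At that threshold shPogz had 3 lower (2.65%) and 0 higher (4.05%). DESeq2 called 1 of the 57 in shAdnp, Ppfia4 (2.41% of all tested genes), and 0 in shPogz (0.574%), and limma-voom called 0 in both. Rab27b, a GTPase of secretory vesicles, had 67.3 and 57.8 CPM in shAdnp, against 77.5 and 76.5 CPM in Adnp-set GFP, at -0.30 (SE 0.12). Stxbp5l, a tomosyn that competes for SNARE assembly, had 399 and 391 CPM in shAdnp, against 485 and 447 CPM in Adnp-set GFP. Ppfia4, a liprin of the active zone, was higher in shAdnp, with 65.4 and 68.8 CPM, against 50.7 and 51.0 CPM in Adnp-set GFP. Its log2 fold change was 0.40 (SE 0.10; unadjusted p 0.00322, adjusted p 0.306 by edgeR). Unc13d, the Munc13 form of lytic granule release in blood cells, had 3.09 and 4.75 CPM in shAdnp, against 1.21 and 2.34 CPM in Adnp-set GFP. Unc13d had 5.40 and 8.62 CPM in shPogz, against 2.69 and 4.65 CPM in Pogz-set GFP, so it lay above its controls in both sets without overlap. Of the microglia markers, 15 of 15 lay above without overlap in shAdnp (20.4% of all tested genes) and 13 of 15 in shPogz (19%). A link between Unc13d and these markers was not tested. Sncb, which encodes beta-synuclein, had 90.0 and 74.2 CPM in shPogz, against 123 and 102 CPM in Pogz-set GFP, at -0.45 (SE 0.16; unadjusted p 0.0165, adjusted p 0.667 by edgeR). Stxbp5, the other tomosyn gene, had 224 and 173 CPM in shPogz, against 256 and 237 CPM in Pogz-set GFP. Dnm2, the dynamin of all tissues, had 54.3 and 59.5 CPM in shPogz, against 49.7 and 52.4 CPM in Pogz-set GFP.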

How the data were processed

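The authors deposited raw read counts per gene symbol, 1 file per library. Per the submitters' processing notes, STAR, featureCounts and DESeq2 were used with build mm10, while Cutadapt and TopHat2 with RefSeq mRNAs are named per the labels' protocols. The libraries were stranded and ribosomal RNA was depleted, from 1 µg of RNA, per the labels' protocols. The sources used here do not give versions or the strand setting of the counting. In GENCODE vM21, 13 members share exon bases with another gene, and for Syp, Syt4 and Erc1 the share is over 10%. For each of these the other gene lies on the opposite strand and is absent from the count files. Whether its reads entered their counts depends on the strand setting and was not tested.

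In each library 25 identifiers that a spreadsheet had turned into dates (0.306% to 0.337% of counts) and 2 blank ones were left out. Counts were tested in R 4.3.3 with edgeR 4.0.16, with filterByExpr (minimum count 10), TMM scaling and a robust quasi-likelihood model over the 8 libraries, fitting a mean for each group. This left 4 residual degrees of freedom, and the common coefficient of biological variation was 0.171. P-values are two-sided and adjusted by Benjamini-Hochberg over 17415 genes at 0.05. With 2 libraries per group they rest on a spread that genes and groups share. In each group the chi-square between the 2 libraries, divided by its degrees of freedom, was 28 to 274, far above counting noise, so none was a repeat. The code was tested on simulated data for shAdnp over GFP. It recovered 65 of 100 genes with a true log2 change of 1 and 96 of 100 with 2, with 15 false calls. Smaller changes, such as those of the members, were not simulated. Counts were drawn for each gene apart, without differences between libraries that many genes share. The shares recovered may therefore not hold for the data, where edgeR called 0 of 17415 genes in shAdnp.

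The members and lists were chosen with earlier results of these data known. Genes named with values in every library are, per role, those with the smallest p in each knockdown, the 4 members of largest coefficient of variation and, of the other release genes, up to 2 each way per knockdown. Alternatives were DESeq2 1.42.0, limma-voom (limma 3.58.1), RLE, upper quartile and pan-neuronal scaling, other filters, only the 4 libraries of a set, the replicate number as a block and leaving out each library. Coordinates and windows come from RefSeq for GRCm38.p6, the assembly of mm10, and exon lengths from GENCODE vM21.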

Additional observations from a re-analysis of the deposited data

How the results depend on the processing

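Scaling to pan-neuronal markers moved the members' median to 0.027 in shAdnp, -0.0089 in shPogz, 0.038 in the average of both hairpins and -0.0016 between the control pairs, since it moved every gene of a library alike. Leaving out single libraries gave medians from -0.27 to -0.044 in shPogz and from -0.16 to 0.054 for the difference between hairpins, the upper end of both being without shPogz replicate 2. It gave 0 to 1 members called in the average, as DESeq2 called 1. The cause was not tested. Other settings kept each median within 0.11 of its main value, the spread between replicates, and called 0 members. That limit is loose, since it is nearly as large as the medians. It rests mostly on shPogz, where the members' median log2 ratio of replicate 2 over 1 was -0.30, against -0.06 to 0.05 in the other groups. Settings that kept all libraries, pan-neuronal scaling aside, gave medians from -0.13 to -0.11 in shAdnp and from -0.19 to -0.16 in shPogz. Small differences in shAdnp turned positive. Under pan-neuronal scaling these were Cplx2 0.14, Dnm1 0.15, Erc1 0.0062, Slc17a7 0.066, Sv2a 0.061, Unc13b 0.15 and Vamp1 0.16. With only the 4 libraries of the set they were Cplx2 0.0029, Dnm1 0.015, Unc13b 0.0059 and Vamp1 0.018, and with upper quartile scaling Dnm1 0.011, Unc13b 0.0022 and Vamp1 0.014. Vamp1 was 0.0013 under DESeq2 and RLE scaling. In shPogz pan-neuronal scaling gave Slc17a6 0.12, Sv2b 0.10, Synj1 0.0094 and Syt4 0.074. With single libraries left out, the shAdnp value ran from -0.35 to 0.50 for Bsn, -0.058 to 0.035 for Cplx2, -1.07 to 0.43 for Cplx3, -0.075 to 0.080 for Dnm1, -0.037 to 0.66 for Syt2, -0.15 to 0.12 for Unc13b and -0.20 to 0.19 for Vamp1. The shPogz value ran from -0.51 to 0.024 for Rims3, -0.30 to 0.24 for Slc17a6, -0.28 to 0.17 for Sv2b, -0.23 to 0.36 for Syt2, -0.17 to 0.0066 for Syt4, -0.082 to 0.17 for Unc13c and -0.80 to 0.029 for Vamp1. A group left with 1 library was assumed to vary like the others. Within a set, replicate numbers showed no pairing of hairpin with GFP libraries (correlation of deviations -0.009 in the Adnp set and 0.047 in the Pogz set). Pairs across the sets, which the block below also joins, were not checked. With the replicate number as a block the members' medians were -0.13 in shAdnp and -0.19 in shPogz, Vamp1 was 0.0083 in shAdnp, 0 members were called, and 144 genes were called in shAdnp, 26 in shPogz and 455 in the average, against 0 in each without it. Counts of members below 0, genes called over the whole table and the single values for Rab3c, Rims3 and Unc13c in the average and the difference were added after seeing the data. Cplx3, at a mean of 13.7 CPM, and Unc13d of the other genes, at 4.09 CPM, are among the least precise, with SEs of 0.55 and 0.42 in shAdnp.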
